A study of Homo sapiens with 6 samples.

Results

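Notch signalling runs between touching cells. A ligand of the Jagged or Delta-like family on one cell binds a NOTCH receptor on its neighbour. The receptor is then cut by an ADAM protease and by gamma-secretase, and its freed intracellular part enters the nucleus. There it joins the DNA-binding protein RBPJ and a Mastermind-like coactivator and switches on target genes, of which the HES and HEY repressors and NRARP are the textbook examples. In the prostate the pathway is known for its part in luminal and basal cell fate. The 10 genes described here were listed by name and found by matching Ensembl identifiers to current symbols. They are the ligands JAG1, JAG2 and DLL1, the receptors NOTCH1, NOTCH2 and NOTCH3, the coactivator MAML2 and the targets HES1, HEY1 and NRARP. All 10 of these were found among the 59565 loci of the count table, and 9 of them passed the filter on low counts, as did 19029 genes in all. Another 65 pathway genes, sorted by role, are described around them.

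RNA-seq gene counts were compared between 3 libraries of enzalutamide-resistant C4-2 cells, labelled C4-2 Enz-R, and 3 of C4-2 parental cells. C4-2 is a subline of LNCaP, which was grown from a human prostate cancer metastasis, and enzalutamide is an inhibitor of the androgen receptor. The labels give no clone, culture or drug exposure at harvest for either group, so the p-values rest on the spread among 3 libraries a group, and that spread may be technical. How the resistant cells were derived is not stated either. Both groups were extracted and turned into libraries with the same reagents.

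Library totals were 15673404 to 23351394 counts in Enz-R and 19400321 to 28247038 in parental cells. Counts of mitochondrially encoded genes took 14.5% to 15.5% of the total in Enz-R and 8.78% to 11.3% in parental libraries. All 9 prostate luminal markers were detected, with a summed level of 5434 to 5645 CPM in Enz-R and 9452 to 10056 CPM in parental libraries. Here CPM is the usual depth-scaled count, taken over tested genes with TMM scaling. Defining markers of other cell types were near 0, with at most 5 counts in any library for PTPRC, CD3E and ITGAM of leukocytes, PECAM1 and CDH5 of endothelium, DCN and LUM of fibroblasts and KRT5 of basal cells. Summed over each whole list, leukocyte markers reached 2.59 to 3.24 CPM in Enz-R and 3.00 to 3.62 in parental libraries, and endothelial markers 4.71 to 6.02 CPM in Enz-R and 9.64 to 12.0 in parental libraries. Fibroblast markers summed to 50.6 to 60.1 CPM in Enz-R and 62.1 to 65.1 in parental libraries, most of it from COL1A1, and basal markers to 3.18 to 3.24 CPM in Enz-R and 3.52 to 4.73 in parental libraries. The part of the mitochondrial share and of these markers in the results was not tested, apart from a fit without mitochondrial genes, which moved no call of a member.

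The ligand JAG1 was nearly lost in Enz-R cells, while JAG2 and DLL1 were higher there. Of the 10 members, 3 were higher in Enz-R (JAG2, DLL1 and HES1), 5 were lower (JAG1, NOTCH2, NOTCH3, HEY1 and NRARP), NOTCH1 did not pass the test and MAML2 had too few counts to be tested. A gene is called here when its p in the quasi-likelihood test of edgeR, adjusted by Benjamini-Hochberg over 19029 tested genes, is under 0.05. By that rule 32.4% of all tested genes were called higher and 32.3% lower, so the number of members called does not set them apart. At least 2-fold changes were rarer, with 11.0% of tested genes called and at least 2-fold higher and 8.66% called and at least 2-fold lower. HES1 met the first of these criteria, and JAG1 and HEY1 the second. HEY1, at low counts, passed the filter through the parental group. The 3 Enz-R libraries did not overlap the 3 parental libraries for any of the 9 tested members, as was so for 68.9% of all tested genes. Fold changes below are log2 values of Enz-R over parental with their SE.

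**Figure D1:**
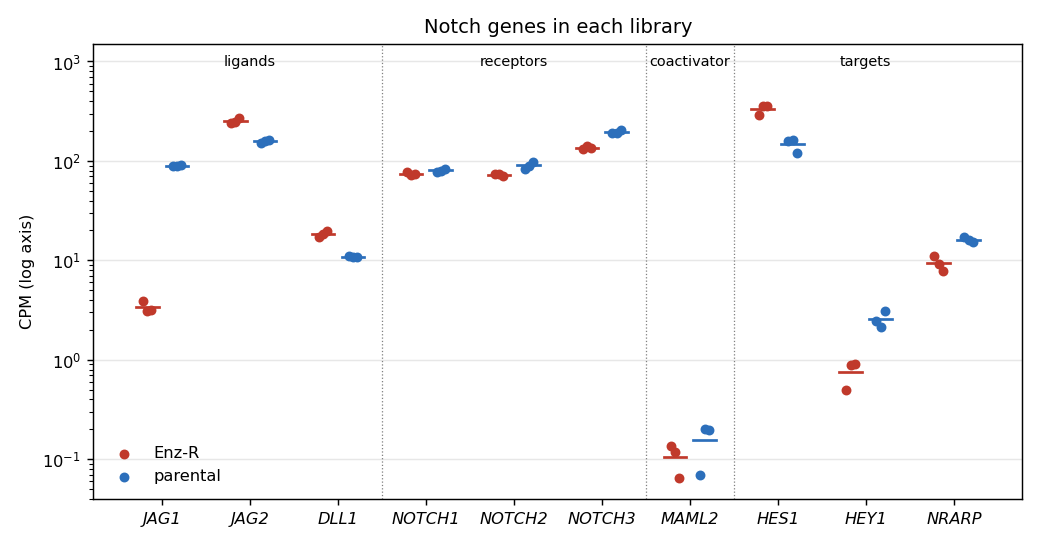
CPM (log axis) of the 10 Notch genes in each of the 3 Enz-R (red) and 3 parental (blue) libraries, with a bar at each group mean. JAG1 averaged 3.39 CPM in Enz-R and 89.7 CPM in parental cells, whereas JAG2, DLL1 and HES1 lay higher in Enz-R.

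JAG1 (ENSG00000101384, GRCh38 chromosome 20, 10637684 to 10673999, minus strand) encodes a Jagged ligand that spans the membrane of the signal-sending cell. It had 3.88, 3.12 and 3.17 CPM in the Enz-R libraries, against 89.8, 88.4 and 90.9 CPM in the parental libraries. Every Enz-R library lay far below every parental one, and the counts behind them were 85, 53 and 49 in Enz-R and 2579, 1766 and 1862 in parental libraries. The fold change was -4.71 ± 0.09, or 26.1-fold lower in Enz-R (adjusted p = 5.78e-15). JAG1 stood at rank 84 from the lowest of the 19029 fold changes. In bulk RNA, fewer cells with the transcript and less of it per cell cannot be told apart. Over the 14 alternative settings its fold change ran from -4.83 to -4.64.

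JAG2 (ENSG00000184916, chromosome 14, 105140981 to 105168824, minus strand), the other Jagged ligand, was the most abundant Notch ligand transcript in both groups. It had 241, 246 and 273 CPM in Enz-R libraries, against 153, 159 and 161 CPM in parental libraries. All 3 Enz-R values were above all 3 parental values, a fold change of 0.68 ± 0.06 (adjusted p = 2.33e-07). DLL1 (ENSG00000198719, chromosome 6, 170282206 to 170306565, minus strand), a Delta-like ligand, had 17.1, 18.3 and 19.9 CPM in Enz-R libraries, against 11.0, 10.7 and 10.7 CPM in parental libraries. It too was higher in every Enz-R library, by 0.77 ± 0.10 (adjusted p = 5.95e-06). DLL1 overlaps FAM120B on the other strand, but the annotated exons of the pair share no bases.

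The contrast of JAG1 with the other ligands was also taken within each library, as a ratio of counts that needs no scaling between libraries. The JAG1 to JAG2 ratio was 0.0162, 0.0128 and 0.0117 in Enz-R libraries and 0.586, 0.557 and 0.563 in parental libraries. Its mean log2 was -6.22 ± 0.24 in Enz-R and -0.82 ± 0.04 in parental cells (SD, n = 3 each), a difference of -5.40, or 42.3-fold. The JAG1 to DLL1 ratio was 0.228, 0.172 and 0.161 in Enz-R libraries and 8.18, 8.27 and 8.49 in parental libraries, so JAG1 counts were below DLL1 counts in every Enz-R library and above them in every parental one. Its mean log2 differed by -5.49, or 45.0-fold. For both ratios the groups did not overlap, and the exact two-sided permutation test over the 6 libraries gave p = 0.10, the smallest that 3 against 3 allows (adjusted p = 0.15 over the 3 ratios). The JAG2 to DLL1 ratio was 14.1, 13.4 and 13.7 in Enz-R libraries and 14.0, 14.9 and 15.1 in parental libraries. These groups overlapped, and the log2 difference of -0.09 gave an exact permutation p = 0.20 (adjusted p = 0.20).

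Levels of different genes were compared per kb of annotated exon. Among the 5 canonical ligands JAG1, JAG2, DLL1, DLL3 and DLL4, JAG1 made up 0.647% ± 0.0929 of this ligand total in Enz-R and 21.2% ± 0.128 in parental libraries (SD, n = 3 each). JAG2 made up 70.0% ± 2.02 in Enz-R and 54.3% ± 1.11 in parental libraries, and DLL1 10.1% ± 0.492 in Enz-R and 7.35% ± 0.176 in parental libraries. In Enz-R the order was JAG2 at 39.6 CPM per kb, DLL3 at 10.7, DLL1 at 5.71, JAG1 at 0.365 and DLL4 at 0.0988. In parental cells it was JAG2 at 24.7 CPM per kb, JAG1 at 9.65, DLL3 at 7.44, DLL1 at 3.34 and DLL4 at 0.313. Neighbours in either order lay further apart than the sum of their SDs. DLL3, which in mammals is known to act inside the cell rather than as an activating ligand, rose by 0.53 ± 0.09 (adjusted p = 1.05e-04). DLL4, best known from blood vessels, was called lower at 5, 8 and 11 counts in Enz-R and 29, 31 and 39 in parental libraries, a ratio of 0.309 (95% exact binomial interval 0.189 to 0.486, counting error only). It passed the filter only through the parental group. DLK1 had no counts in any library, and DLK2 and NOTCH4 were not called, at -0.22 ± 0.19 and -0.02 ± 0.20.

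**Figure D2:**
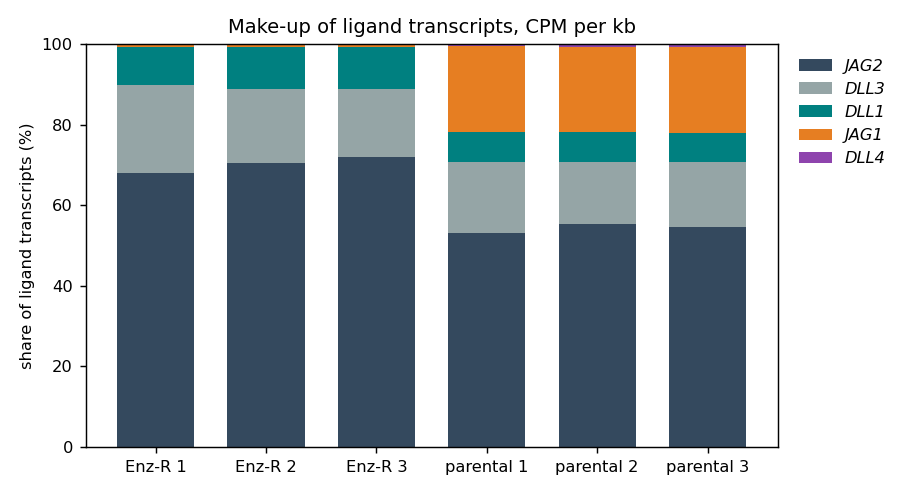
Share (%) of each of 5 ligands in the summed ligand level (CPM per kb of exon) in each library, 3 Enz-R on the left and 3 parental on the right. JAG1 (orange) took 0.574% to 0.751% in Enz-R and 21.2% to 21.4% in parental libraries, and JAG2 was the largest part in all 6.

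The receptors changed far less than JAG1. NOTCH3 (ENSG00000074181, chromosome 19, 15159038 to 15200981, minus strand) had 131, 142 and 134 CPM in Enz-R libraries, against 191, 191 and 204 CPM in parental libraries. It was lower in every Enz-R library, by -0.53 ± 0.06 (adjusted p = 1.89e-06), or 1.45-fold. NOTCH2 (ENSG00000134250, chromosome 1, 119911553 to 120069626, minus strand) had 73.1, 74.1 and 71.1 CPM in Enz-R libraries, against 82.8, 89.1 and 98.5 CPM in parental libraries. Its fold change was -0.31 ± 0.07 (adjusted p = 0.00113). NOTCH2 has near-identical partial copies, so its reads may be split among them, and the copy with a current symbol in the table, NOTCH2NLA, had 10 counts over the Enz-R group and 34 over the parental group. NOTCH1 (ENSG00000148400, chromosome 9, 136494433 to 136545786, minus strand) had 76.9, 71.6 and 73.1 CPM in Enz-R libraries, against 77.7, 79.9 and 83.5 CPM in parental libraries. Its groups did not overlap but lay close, and its fold change of -0.12 ± 0.06 was not called (adjusted p = 0.0964). Without Enz-R replicate 1 it was called lower at -0.15 (adjusted p = 0.0498), and with library totals in place of TMM at -0.22 (adjusted p = 0.00725). Whether the 3 receptors differed from each other in their change was not tested. Per kb of exon, the order was NOTCH3 (14.4 in Enz-R, 20.8 in parental cells), NOTCH1 (7.12 in Enz-R, 7.74 in parental cells), NOTCH2 (4.33 in Enz-R, 5.36 in parental cells) and NOTCH4 (0.411 in Enz-R, 0.421 in parental cells), neighbours lying further apart than the sum of their SDs.

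MAML2, 1 of the 3 Mastermind-like coactivators, was scarcely detected. It had 3, 2 and 1 counts in Enz-R libraries, against 2, 4 and 4 counts in parental libraries. The ratio of group sums, 6 against 10 counts, was 0.764 with a 95% exact binomial interval of 0.228 to 2.32 (counting error only), so no difference was detectable at this depth. The related coactivators carried nearly all the Mastermind-like reads. MAML1 averaged 35.4 ± 1.34 CPM in Enz-R and 69.1 ± 1.89 CPM in parental cells (SD, n = 3 each), and was lower by -0.96 ± 0.06 (adjusted p = 5.23e-09). MAML3 was lower as well, at 11.8 ± 1.58 CPM in Enz-R and 16.2 ± 1.85 CPM in parental cells (-0.45 ± 0.12, adjusted p = 0.00431).

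The 3 targets did not move together. HES1 (ENSG00000114315, chromosome 3, 194136145 to 194138732, plus strand), a transcriptional repressor of the bHLH type, had 287, 356 and 357 CPM in Enz-R libraries, against 157, 164 and 120.1 CPM in parental libraries. It was higher in every Enz-R library, by 1.18 ± 0.11 (adjusted p = 1.44e-07), or 2.27-fold. NRARP (ENSG00000198435, chromosome 9, 137300482 to 137302251, minus strand), a small ankyrin-repeat protein that acts in negative feedback on Notch, had 11.2, 9.29 and 7.83 CPM in Enz-R libraries, against 17.1, 16.0 and 15.4 CPM in parental libraries. It was lower in every Enz-R library, by -0.76 ± 0.12 (adjusted p = 6.54e-05).

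RBPJ is known to bind the letters GTGGGAA, and the HES1 start region is the classical place where it does so. The 250 bases before the RefSeq start (GRCh38.p14) were searched on both strands for GTGGGAA and for its shorter core TGGGAA, which every GTGGGAA also contains. Start regions were on hand for 8 of the 10 members, and HES1 was the only one of these 8 with a match to either. Those of DLL1 and of the target HEY1 were not on hand, so neither gene was searched. The longer motif stands in 5.43% of 35116 start regions and the core in 20.8%. Of the 8 other HES and HEY genes, HES4, HES5, HEY2 and HEYL hold the longer motif, HES3 holds the core alone, and HES2, HES6 and HES7 hold neither. HES4 is the only one of these 4 with the longer motif that had enough counts to be tested. The stretches of HES1 and HES4 are shown because they place the motif beside a target that was higher in Enz-R and one that was not called, with matches in capitals and the first match starting 85 bases before the start of HES1 and 77 before that of HES4.
HES1 (chr3:194136043-194136103, plus strand): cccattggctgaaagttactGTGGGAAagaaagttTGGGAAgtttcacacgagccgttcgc
HES4 (chr1:1000148-1000194, minus strand): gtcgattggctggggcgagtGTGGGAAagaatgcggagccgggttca
A match describes letters in this window and was not tested for binding. HES4 had 46.5, 45.7 and 40.4 CPM in Enz-R libraries, against 41.2, 40.4 and 38.9 CPM in parental libraries, and these groups overlapped (0.14 ± 0.07, adjusted p = 0.0947).

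Among the other HES and HEY genes, HES7 and HES2 moved in opposite directions. HES7 (ENSG00000179111), known as an oscillating repressor of the segmentation clock in the embryo, had 28.4, 28.5 and 32.9 CPM in Enz-R libraries, against 1.95, 1.85 and 2.05 CPM in parental libraries. That is 15.3-fold higher in Enz-R (3.93 ± 0.12, adjusted p = 8.91e-13), at rank 120 from the highest of all tested genes, and no annotated gene in the table overlaps it. HES2 (ENSG00000069812) had 9.55, 8.47 and 10.7 CPM in Enz-R libraries, against 32.0, 30.4 and 30.4 CPM in parental libraries, and was 3.23-fold lower in Enz-R (-1.69 ± 0.09, adjusted p = 8.36e-10). HES6, known to act against HES1 in neural cells, was called lower at -0.18 ± 0.08 (adjusted p = 0.0470), but its groups overlapped and its adjusted p ran from 0.00395 to 0.185 over the alternatives. HES3 and HEYL had no counts, and HES5 and HEY2 had at most 5 counts in any library. Per kb of exon HES1 was the highest of the family in both groups, at 162 CPM per kb in Enz-R and 71.3 in parental cells, followed by HES4 (39.5 in Enz-R and 35.9 in parental cells) and HES6 (22.2 in Enz-R and 25.3 in parental cells). HES7 came next in Enz-R at 16.0 CPM per kb, while HES2 did in parental cells at 5.71.

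The target HEY1 (ENSG00000164683, chromosome 8, 79764010 to 79767863, minus strand), a bHLH repressor of the Hairy-related family, was expressed at a low level. It had 11, 15 and 14 counts in Enz-R libraries, against 71, 43 and 63 counts in parental libraries. This is 0.502, 0.882 and 0.906 CPM in Enz-R and 2.47, 2.15 and 3.07 CPM in parental libraries, and every Enz-R value was below every parental value. HEY1 was lower by -1.78 ± 0.27, or 3.43-fold (adjusted p = 3.78e-05). It met the count filter in 2 Enz-R and 3 parental libraries, so it passed through the parental group. The ratio of group sums was 0.288 (95% exact binomial interval 0.199 to 0.407, counting error only).

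**Figure D3:**
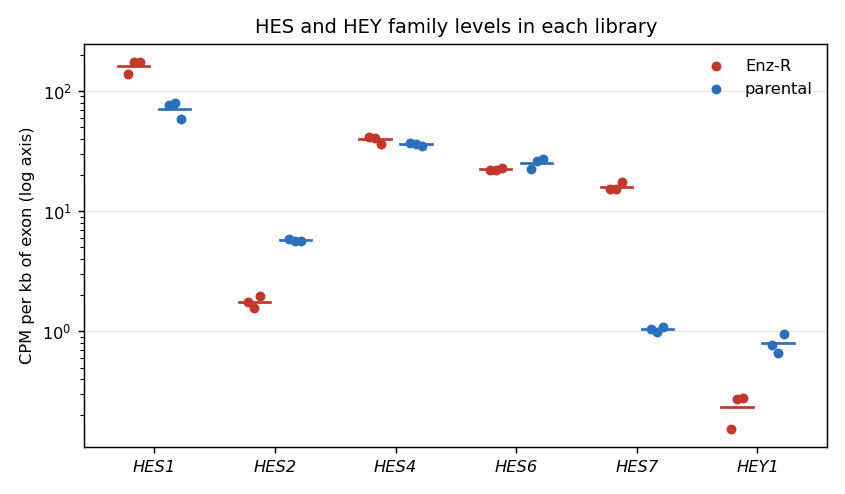
Level in CPM per kb of exon (log axis) of the 6 HES and HEY genes that were tested, in 3 Enz-R (red) and 3 parental (blue) libraries, with bars at group means. HES1 and HES7 lay higher and HES2 and HEY1 lower in Enz-R, while HES4 and HES6 overlapped.

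Around the ligands and receptors, 65 further genes of the pathway were sorted by role. Of these, 59 were tested, 14 were called higher and 33 lower in Enz-R, against 32.4% called higher and 32.3% lower over all tested genes. Their median fold change was -0.22 against 0.01 for all tested genes. A called change of at least 2-fold was seen for 3 genes upward and 7 downward, against 11.0% and 8.66% over all tested genes. The counts of each list below are to be read against the same shares. The names below are the largest called changes of each list in either direction with at least 5 CPM in the higher group.

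Sugars on the NOTCH receptors tune which ligands they respond to. The 5 glycosylation genes split into 3 called higher and 1 lower, with a median of 0.83. That median is the value of the 1 gene not called, which had at most 17 counts in any library. The Fringe glycosyltransferase RFNG had a mean of 72.4 ± 5.79 CPM in Enz-R and 34.2 ± 2.38 in parental cells (1.08 ± 0.08, adjusted p = 9.61e-09). LFNG, the Lunatic Fringe gene, had 27.5 ± 2.31 CPM in Enz-R and 14.4 ± 0.785 in parental cells (0.93 ± 0.09, adjusted p = 3.27e-07). The O-glucosyltransferase POGLUT1 was higher by 0.29 ± 0.08. The O-fucosyltransferase POFUT1, which adds the fucose that Fringe enzymes extend, was lower by -0.73 ± 0.06. RFNG shares 835 exon bases with GPS1 on the other strand, whose own fold change was 0.53, and reads of the 2 genes cannot be told apart without strand.

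Of the 9 genes that cut the receptor, 7 were called lower and 1 higher, with a median of -0.21, where 32.3% of all tested genes were called lower. The furin protease gene FURIN, which makes the first cut in the secretory pathway, had 26.5 ± 1.64 CPM in Enz-R and 56.5 ± 3.19 in parental cells (-1.09 ± 0.07, adjusted p = 5.87e-09). NCSTN, the nicastrin subunit of gamma-secretase, had 57.0 ± 4.35 CPM in Enz-R and 121 ± 2.97 in parental cells (-1.09 ± 0.07, adjusted p = 2.26e-09). The presenilin gene PSEN2 was lower by -0.51 ± 0.08, and ADAM10, ADAM17 and APH1A were each lower by -0.21. The call of ADAM17 did not hold under every alternative, its adjusted p running from 0.00424 to 0.0874. PSENEN, a small gamma-secretase subunit, was the exception at 13.1 ± 1.99 CPM in Enz-R and 7.28 ± 1.02 in parental cells (0.85 ± 0.14). It shares 332 exon bases with U2AF1L4 on the other strand, which had a fold change of 0.75. NCSTN shares 129 exon bases with COPA, which had -0.66.

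Of the 7 genes for ligand endocytosis, the step by which the sending cell pulls on the receptor, 1 was higher and 5 lower, with a median of -0.31. The ubiquitin ligase gene MIB2 was higher by 0.41 ± 0.06, while NEURL1B, another ubiquitin ligase, was lower by -0.88 ± 0.11 and the epsin genes EPN1 and EPN2 by -0.53 ± 0.07 and -0.31 ± 0.06. MIB2 shares 219 exon bases with an antisense gene that had -0.37. MIB1 stood at -0.02 ± 0.07 and was not called.

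Receptor turnover genes went both ways, 3 higher and 4 lower of 11, with a median of -0.05. DTX4 (ENSG00000110042), a Deltex ubiquitin ligase, had 29.5, 35.1 and 31.5 CPM in Enz-R libraries, against 4.77, 4.31 and 4.88 CPM in parental libraries. Its groups were well apart, at 6.86-fold higher in Enz-R (2.78 ± 0.11, adjusted p = 1.06e-11). DTX3L was lower by -1.26 ± 0.10 and DTX3 by -0.69 ± 0.12. DTX3L shares 217 exon bases with PARP9 on the other strand, which had -0.93. NUMBL, a relative of the Notch inhibitor NUMB, was higher by 0.65 ± 0.06 and the ubiquitin ligase gene ITCH was lower by -0.73 ± 0.07. NEDD4 was called higher by 0.28 ± 0.10 (adjusted p = 0.0253), but over the alternatives its adjusted p ran from 0.0114 to 0.130. NUMB itself was not called at 0.00 ± 0.06.

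In the nucleus, 5 of the 7 listed genes for activation, which are RBPJ and coactivators, were lower and none higher, with a median of -0.45. Besides MAML1, the acetyltransferase genes CREBBP and EP300 were lower by -0.71 ± 0.07 and -0.70 ± 0.07. RBPJ had 65.0 ± 1.21 CPM in Enz-R and 77.4 ± 2.38 in parental cells (-0.25 ± 0.06, adjusted p = 0.00168). All 12 tested corepressor genes were called, 8 lower and 4 higher, with a median of -0.39. SPEN, which holds RBPJ in its repressing state, was called lower at 70.3 ± 5.34 CPM in Enz-R and 141 ± 1.93 in parental cells. CTBP2 was lower by -0.78 ± 0.06. CTBP2 shares 3416 exon bases with ZRANB1 on the other strand, which had -0.82. The Groucho-type corepressor genes TLE2 (0.83 ± 0.07) and TLE1 (0.59 ± 0.08) and CIR1 (0.81 ± 0.08), which encodes an RBPJ-interacting corepressor, were higher.

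**Figure D4:**
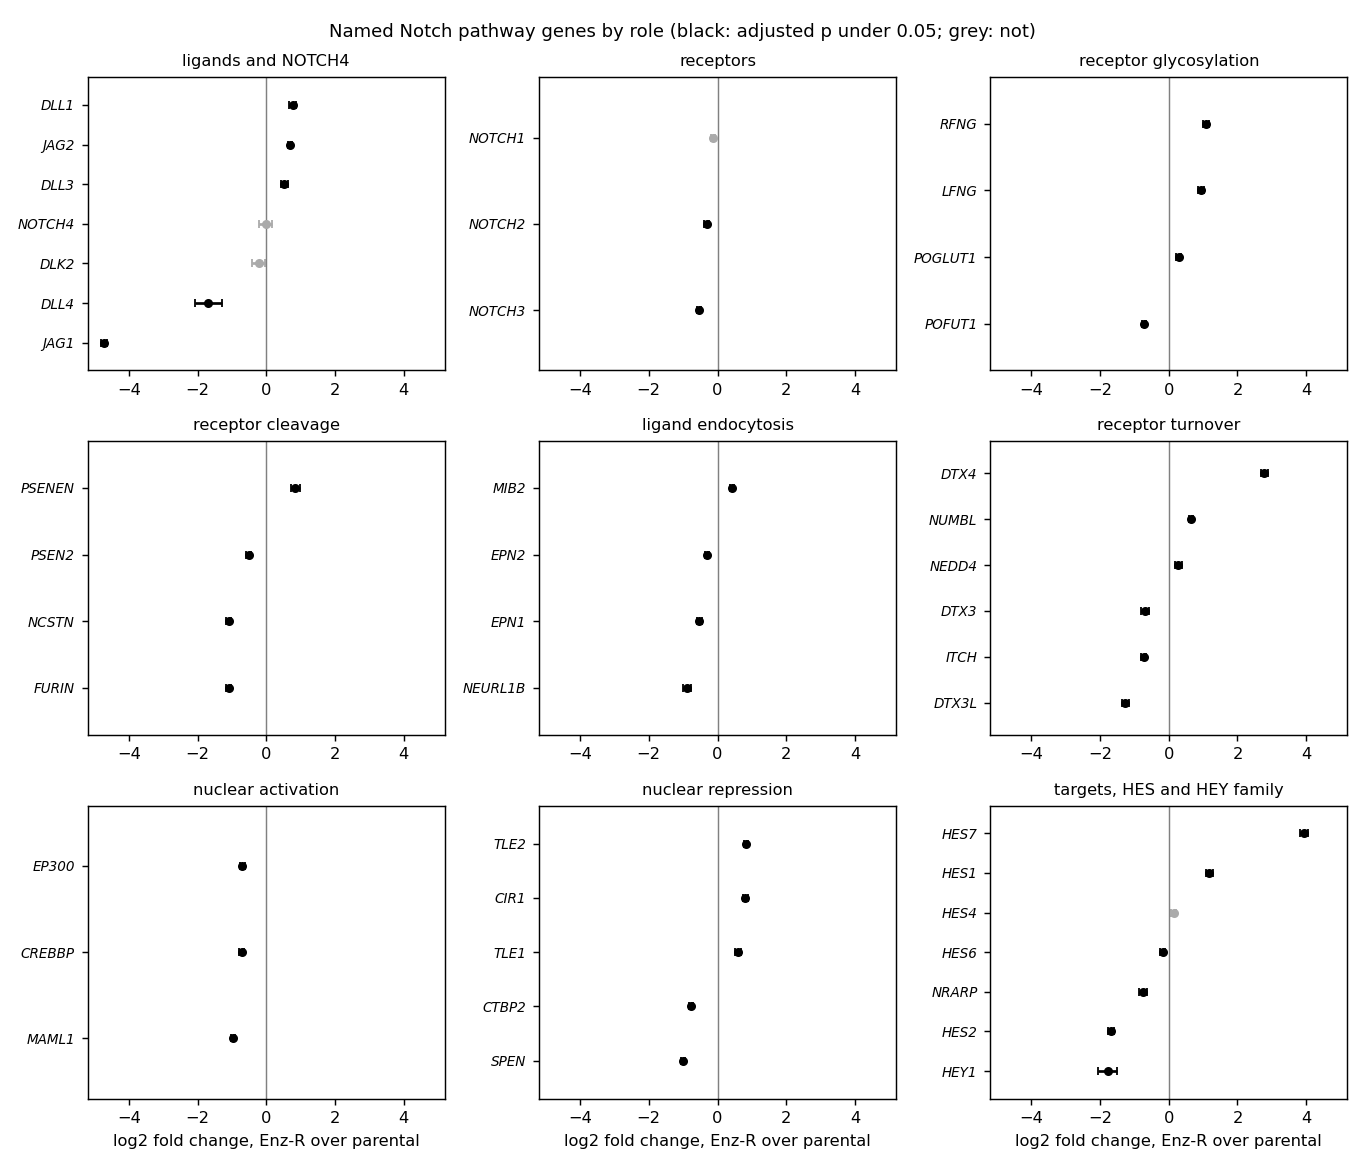
Log2 fold change of Enz-R over parental (x axis, bars are SE) for named Notch pathway genes in 9 panels by role, with called genes in black and others in grey. JAG1 lies apart at -4.71 among the ligands, HES7 at 3.93 among the targets and DTX4 at 2.78 among the turnover genes.

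Each member was set beside its 5 nearest tested protein-coding genes on either side. JAG1 lay below all 10 of its neighbours, which had a median of -0.49 and a lowest value of -1.21 for PLCB4, with 6 called lower and none higher. HES1 lay above all 10 of its neighbours, of which 7 were called lower and none higher. NOTCH3, at -0.53, lay below all 10 of its neighbours, which had a median of 0.53. JAG2 lay within its neighbours' range of -0.25 to 1.05, with 6 of 10 neighbours called higher. HEY1 at -1.78 lay within its neighbours' range of -1.81 to 0.63, 7 of 10 of them called lower. DLL1 at 0.77 lay just above its 9 neighbours, which reached 0.65 at PDCD2, there being fewer tested genes toward the chromosome end. NRARP at -0.76 lay close to its lowest neighbour TOR4A at -0.78. NOTCH1 and NOTCH2 lay within their neighbours' ranges. The neighbours of NOTCH2 were spread widely, from 119031216 to 143971965 on chromosome 1, so some lie far from it. HES7 lay above and HES2 below all 10 of their neighbours, and DTX4 at 2.78 lay above its highest neighbour FAM111B at 2.19.

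**Figure D5:**
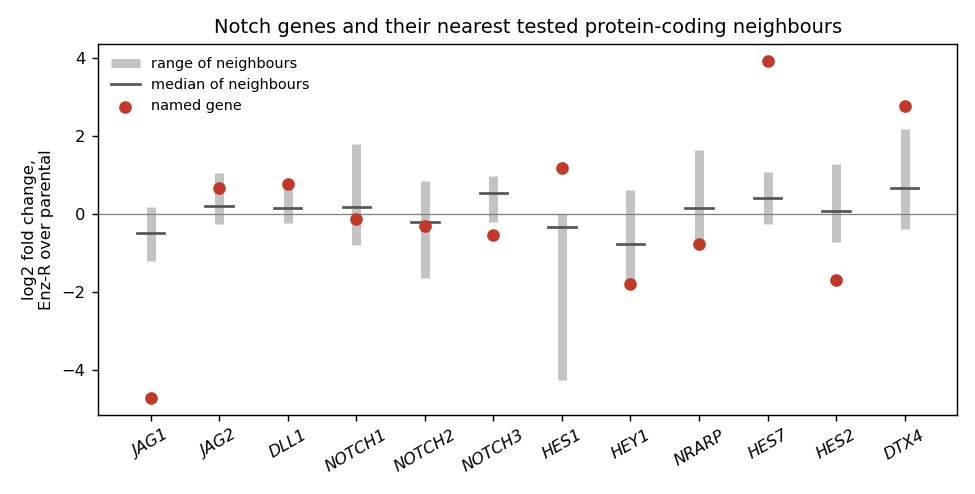
Log2 fold change of Enz-R over parental for 9 tested Notch members and for HES7, HES2 and DTX4 (red points), beside the range (grey bar) and median (dark line) of up to 10 neighbouring tested protein-coding genes. JAG1, HES1, NOTCH3, HES7 and HES2 lie well outside the range of their neighbours, and HEY1 within it.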

How the data were processed

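The deposited table holds raw counts per gene for 6 libraries, which the authors made from 150 bp paired-end reads, per the labels' protocols. The submitters' processing notes name HISAT2 and the GRCh38 build. Which counter, annotation and strand setting they used is not given in the sources used here. Identifiers were placed with GENCODE 29 and given current symbols. The comparison across 19029 genes used filterByExpr, TMM, glmQLFit and glmQLFTest of edgeR 4.0.16 (R 4.3.3), and the SE was derived from the F statistic. Level per kb uses the union of annotated exons. The members and lists were chosen with earlier results of these data known. Named genes beyond the members were up to 3 rises and 3 falls per list, called, with groups that do not overlap and at least 5 CPM. Ratios within a library had 0.5 added to each count. Between libraries of a group log2 CPM correlated at 0.990 to 0.993, and the chi-square per degree of freedom was at least 3.91, so no library is a repeat of another. Alternatives were DESeq2 1.42.0, limma-voom (limma 3.58.1), DESeq2 size factors, total counts, mitochondrial genes left out, other filters, the replicate number as a block, and leaving out each library. The fit was tested on simulated data. Some genes of the lists are not reported here by name.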

Additional observations from a re-analysis of the deposited data

How the results depend on the processing

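All 8 called members kept their direction and call under every alternative that tested them, and 3 members were higher throughout. The number lower was 4 to 6 against 5, being 4 when at least 50 counts in 3 libraries were asked for, which drops HEY1, and 6 where NOTCH1 was added (total counts, or without Enz-R replicate 1). Of the other pathway genes, 12 to 16 were higher and 30 to 34 lower. Of the 14 higher and 33 lower pathway genes beyond the members, 5 lost their call under at least 1 alternative, with a highest adjusted p of 0.0514 for POGLUT1 (total counts), 0.0874 for ADAM17, 0.0872 for NEURL1, 0.130 for NEDD4 and 0.185 for HES6. Total counts moved the median of all genes by -0.09, and leaving out mitochondrial genes by 0.00. Leaving out 1 library, the log2 JAG1 to JAG2 difference ran from -5.54 to -5.30, JAG1 to DLL1 from -5.64 to -5.39 and JAG2 to DLL1 from -0.12 to -0.07. Same-numbered libraries of the 2 groups did not deviate together (r = 0.0493, -0.00808 and 0.0112), so the numbers do not pair them. With the replicate block 6179 genes were higher and 6158 lower, against 6173 and 6150 without it, and the same 3 and 5 counts of members were called. The ratios taken as same-numbered pairs differed by -5.40, -5.49 and -0.09 with the block (exact sign-flip p = 0.25, 0.25 and 0.50, where 0.25 is the smallest possible). Depth limits MAML2, HEY1 and DLL4.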

Other observations

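Genes that stand next to the HES repressors in textbook circuits were listed after the pathway values were seen. Of the 4 ID genes, whose products bind bHLH proteins and keep them from DNA, 3 were tested, each called higher in Enz-R. Over all tested genes, 32.4% were called higher. ID4 was below the filter, at 1, 2 and 1 counts in Enz-R libraries and 5, 4 and 6 in parental libraries. ID1 averaged 80.2 ± 2.45 CPM in Enz-R and 44.2 ± 9.18 in parental cells (0.87 ± 0.11, adjusted p = 5.65e-06), ID2 17.8 ± 1.52 CPM in Enz-R and 7.45 ± 0.927 in parental cells (1.26 ± 0.12, adjusted p = 2.35e-07) and ID3 112 ± 7.56 CPM in Enz-R and 66.6 ± 11.4 in parental cells (0.76 ± 0.10, adjusted p = 8.14e-06; SD, n = 3 each). Of 8 proneural bHLH genes, a class that HES1 is known to repress in neural tissue, 2 were tested. ATOH1 had no counts in any Enz-R library and 24, 17 and 18 counts in parental libraries. A floor of 3 counts set for the Enz-R group would make it 15.4-fold lower there, a bound that rests on this floor and not an estimate. The 95% exact binomial interval of its ratio of group sums was 0.0 to 0.0821 (counting error only). ATOH1 passed the filter only through the parental group. ASCL2 was not called (0.13 ± 0.13, adjusted p = 0.381).

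Of 8 non-canonical Notch ligands, 6 were below the filter. EGFL7, a secreted protein, was called higher by 0.23 ± 0.07 (adjusted p = 0.0122, up to 0.134 over the alternatives), and it is a neighbour of NOTCH1. THBS2 was not called (0.18 ± 0.17, adjusted p = 0.364).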
